A study of Mus musculus with 6 samples.

Results

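The colony-stimulating factors, Kit ligand and their receptors were followed through mouse dorsal skin in a psoriasis-like model. They were 10 of the 31053 genes listed in the count tables and were chosen by symbol, with no measured value in the rule. Earlier results of these data were known when they were chosen. The 5 ligands were Csf1, Csf2, Csf3, Il34 and Kitl, and the 5 receptor genes were Csf1r, Csf2ra, Csf2rb, Csf3r and Kit. The study asked how inhibition of the phosphatase SHP2 changes the skin of mice given imiquimod (IMQ), a Toll-like receptor agonist that causes psoriasis-like inflammation. Single cells were sequenced in 6 libraries, 2 in each of 3 groups, and the study states that every library pooled mice, fewer per Sham library than per treated library, so the library was the replicate (n = 2 per group). All mice were female C57BL/6J, 8 to 10 weeks old. Sham mice were untreated. IMQ mice had 62.5 mg of a 5% imiquimod cream put on the shaved back daily for 4 days and were killed on the following day. IMQ+SHP099 mice had the same cream and were also given SHP099, an allosteric inhibitor of SHP2, orally at 10 mg/kg per day over 4 days. No group received SHP099 without imiquimod, and the individual mice of a pool cannot be separated in the data.

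Colony-stimulating factors are secreted proteins that keep myeloid cells alive, make them divide or activate them. M-CSF, the product of Csf1, and interleukin-34 both bind the tyrosine kinase receptor encoded by Csf1r. Interleukin-34 is the form known for maintaining Langerhans cells, the resident phagocytes of the epidermis, and keratinocytes are its known source there. GM-CSF, the product of Csf2, binds a receptor built from the specific chain Csf2ra and the signalling chain Csf2rb, which the receptors for interleukin-3 and interleukin-5 share. G-CSF, the product of Csf3, binds Csf3r and is the main growth factor of neutrophils. Stem cell factor, the product of Kitl, binds the tyrosine kinase Kit, on which mast cells and melanocytes depend. The cytokine receptors of this family signal through JAK kinases and STAT proteins, and Socs and Cish proteins damp them.

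After filtering, 50850 of 55201 barcodes were kept, 7382 to 10293 per library, with 51968673 to 170319612 UMIs (unique molecular identifiers, each standing for a captured RNA molecule) per library. Cells were placed into classes by marker genes that held none of the 10 members, and the suffix "-like" marks a class named from markers alone. Replicates of a group differed in their makeup. Keratinocyte-like cells made up 72.7% and 22.8% of the Sham libraries, 17.4% and 8.06% of the IMQ libraries, and 64.2% and 6.19% of the IMQ+SHP099 libraries, in the order replicate 1, replicate 2 that is kept throughout. Neutrophil-like cells numbered 5 and 9 in Sham, 162 and 337 under IMQ, then 15 and 90 under IMQ+SHP099. Median UMIs per cell ranged from 5645 to 8854 in 5 libraries and stood at 18263.5 in IMQ+SHP099 replicate 1. Any pair of libraries shared 14 to 43 barcodes, at most 0.523% of the smaller library. Levels are given in UPM, the UMIs of a gene scaled to 1000000 UMIs of the same cells. In a sum over all cells, fewer cells of a type and less RNA per cell cannot be told apart, so each gene was also followed class by class. The UMIs were sequenced from the 3′ end of transcripts, so levels were not scaled by gene length, and they are compared for 1 gene at a time.

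Over the whole tissue, Csf3 and its receptor gene Csf3r were higher in both IMQ libraries than in both Sham libraries, and Il34 was lower in both. These were 3 of the 10 members whose groups did not overlap in the sums of all cells, against 38.1% of all 13678 genes with a mean of at least 1 UPM, so the share among the members was near the background. Csf3 stood at 0.808 and 1.84 UPM in Sham, 17.5 and 7.09 under IMQ, then 12.7 and 15.1 under IMQ+SHP099. Il34 stood at 61.8 and 24.5 in Sham, 12.6 and 16.1 under IMQ, then 9.92 and 14.9 under IMQ+SHP099. For Csf3r the values were 0.0716 and 1.89 in Sham, 8.24 and 14.8 under IMQ, then 0.370 and 9.72 under IMQ+SHP099. None of these differences passed the test across all genes in the sums of all cells. The log2 fold change of Csf3 for IMQ against Sham was 3.36 (SE 0.62), with an unadjusted p of 0.00159 and an adjusted p of 0.382 (edgeR's quasi-likelihood test, Benjamini-Hochberg adjustment over every gene of the sum, which holds for every adjusted p below unless another tool is named). DESeq2 gave 4.5e-05 for the same Csf3 sums.

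**Figure D1:**
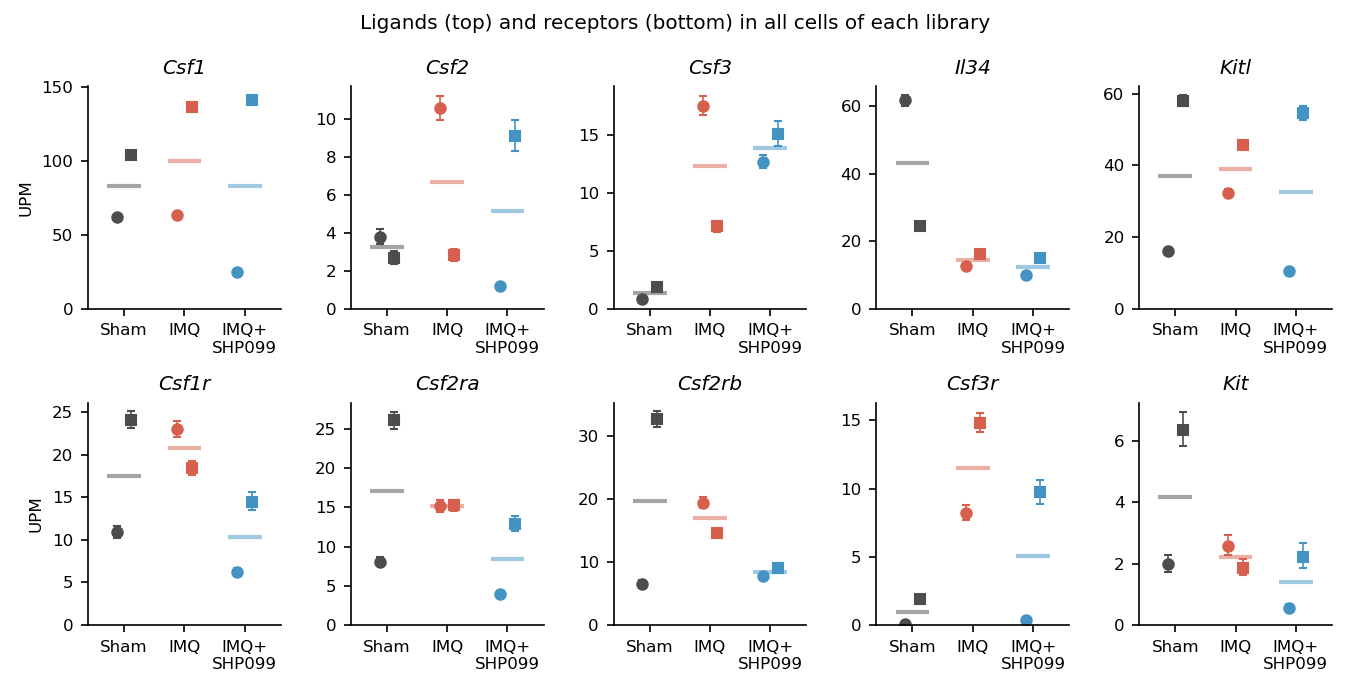
Level of each of the 10 genes in all cells of each library, in UPM (y axis), by group (x axis). Circles are replicate 1 and squares replicate 2, error bars are exact 95% Poisson intervals that cover counting error only, and horizontal lines are group means of the 2 libraries. Csf3 and Csf3r lie higher and Il34 lower in both IMQ libraries than in both Sham libraries, and Csf1, Kitl and Kit spread more within groups than between them.

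Within classes, 14 sums (all cells and 13 classes with at least 20 cells in every library) could be tested, and a member had enough UMIs for a test in 13 of them, which made 79 tests of members per comparison. For IMQ against Sham, 10 of the 79 passed an adjusted p of 0.05, 5 higher and 5 lower, and 29 had an unadjusted p under 0.05. Over all genes and sums, 4.82% of tests passed in that comparison and 17.9% had an unadjusted p under 0.05. By class, 12.7% of genes passed in keratinocyte-like, 17.1% in basal keratinocyte-like, 15.8% in suprabasal keratinocyte-like and 0.594% in fibroblast-like cells, and the 10 calls of members all lay in these sums. They belonged to Csf3, Il34, Csf2 and Csf1r. The keratinocyte-like sum holds the basal, suprabasal and upper hair follicle cells, so its calls are not separate evidence. For IMQ+SHP099 against Sham, 8 of 79 passed, 4 higher and 4 lower, against 4.98% of all tests. For IMQ+SHP099 against IMQ, 0 of 79 passed with edgeR and 0 with DESeq2, against 0.00068% of all tests (1 of 146967). An unadjusted p under 0.05 was found for 6 of the 79, against 2.34% of all tests.

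**Figure D2:**
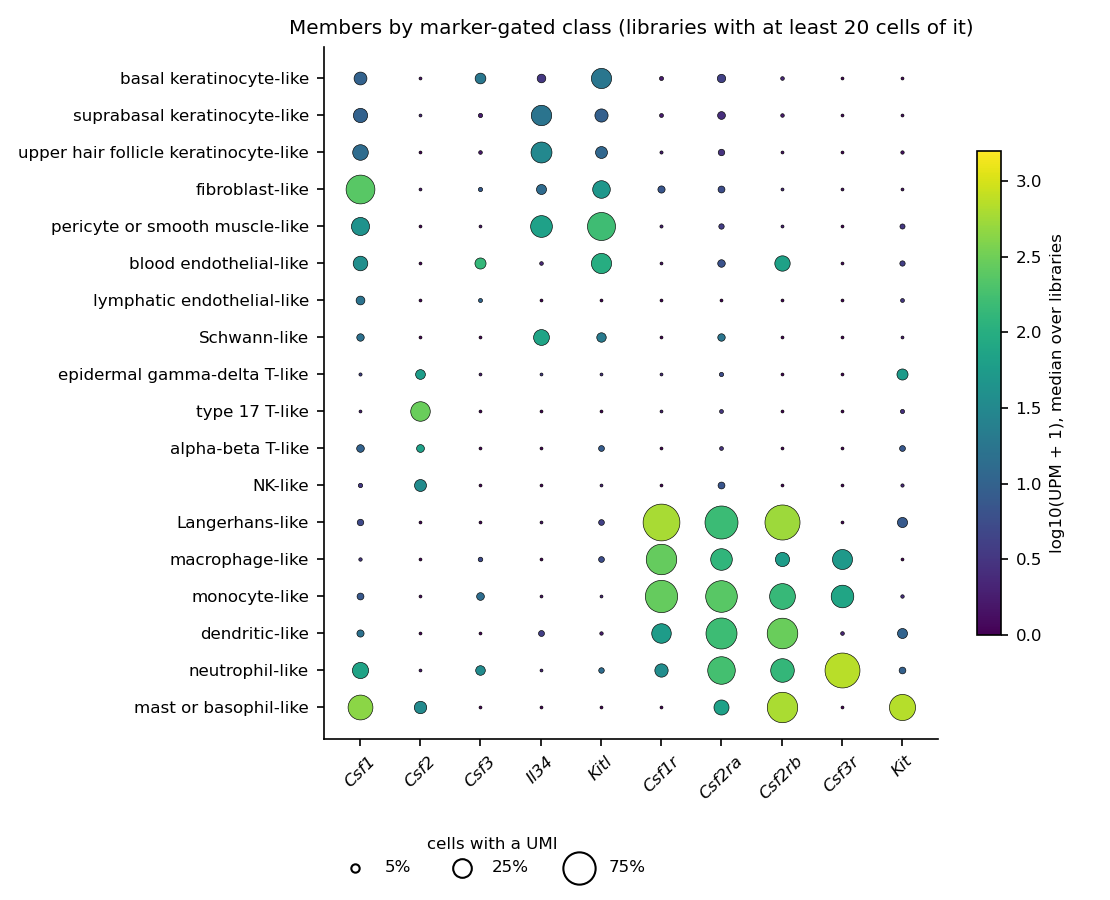
Median level of each gene over libraries (colour, log10 of UPM plus 1) and median percent of cells with at least 1 UMI (dot area) in each class (rows), using libraries with at least 20 cells of the class. Csf1, Csf3, Il34 and Kitl fill the upper left, in keratinocyte-like, fibroblast-like, pericyte or smooth muscle-like and endothelial-like cells. Receptors fill the lower right, in myeloid, mast and basophil-like cells. Csf2 is highest in type 17 T-like cells, whose median comes from 3 libraries, none of them Sham. Csf1 is also high in mast and basophil-like cells. Kit also appears in epidermal gamma-delta T-like cells and Csf2rb in blood endothelial-like cells.

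Csf3, the ligand gene of the neutrophil axis, lies on chromosome 11 from 98701263 to 98703629 on the plus strand (GRCm38, GENCODE vM21). It rose in keratinocyte-like and in fibroblast-like cells. In basal keratinocyte-like cells it stood at 0.198 and 0 UPM in Sham, 60.1 and 9.95 under IMQ, then 24.7 and 37.6 under IMQ+SHP099. Behind these levels were 10 and 0 UMIs in Sham, 850 and 81 under IMQ, then 1867 and 145 under IMQ+SHP099. Both treated groups lay wholly above Sham and overlapped each other. On the log2 scale the change was 7.88 (SE 1.03, adjusted p = 0.0015) for IMQ against Sham and 7.76 (SE 1.03, adjusted p = 0.00188) for IMQ+SHP099 against Sham. With 1 library left out, the first ran from 5.98 (without IMQ replicate 1) to 12.6 (without Sham replicate 1, which leaves Sham with 0 UMIs) and passed each time. The second ran from 7.23 (without Sham replicate 2) to 12.5 (without Sham replicate 1) and missed the threshold without IMQ+SHP099 replicate 1 (adjusted p = 0.0515). In Sham, 9 of 3818 and 0 of 850 basal cells held a Csf3 UMI, and the 0 allows a share of up to 0.353%. In IMQ 20.4% and 6.20% of basal cells did so, and in IMQ+SHP099 10.3% and 13.6%. T-like cells, which should lack the gene, held it in at most 0.510% of cells. Basal cells were far deeper than T-like cells, with medians of 39238 and 29983 UMIs in IMQ against 3284.5 and 3262. After every cell was thinned to 2000 UMIs, Csf3 was left in 6.72% and 1.11% of basal cells in IMQ, 2.97% and 4.41% in IMQ+SHP099, and 0.0272% and 0 in Sham.

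The Csf3 signal of basal cells was spread over 77 and 17 cells in IMQ, with at most 75 and 36 UMIs in a cell. Of the 9 neutrophil markers, 5 were detected in the basal sums of Sham and 7 or 8 in those of the treated groups, and their summed level went from 11.3 and 14.5 UPM in Sham to 16778 and 10299 under IMQ and 22076 and 27015 under IMQ+SHP099. This list holds S100a8 and S100a9, which inflamed keratinocytes are also known to express. Its marker Ly6g was at 0 in the basal sums of all 6 libraries, while most of the others were detected in the treated groups. What part neutrophil RNA had in the Csf3 level was not tested. Leaving out every cell of the non-immune classes that held an immune marker gave a log2 fold change of 8.01 (adjusted p = 0.00204), as large as with all cells. Leaving out cells over 3 times the median UMIs of their library gave 6.07 (adjusted p = 0.036). With library medians of 8772 and 8854 UMIs in IMQ, this limit lay under the median basal cell there (39238 and 29983). In Sham the basal medians were 8651 and 13932, under the limit. The filter therefore took out a larger share of basal cells in IMQ than in Sham.

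In suprabasal keratinocyte-like cells Csf3 was lower than in basal cells in each of the 4 treated libraries. It stood at 0.189 and 0 UPM in Sham, 4.33 and 0.898 under IMQ, then 0.748 and 1.39 under IMQ+SHP099. The rise for IMQ against Sham was 4.66 on the log2 scale (SE 1.08, adjusted p = 0.0197), and it missed the threshold without IMQ replicate 1 (adjusted p = 0.335) or without Sham replicate 2 (0.0556). In fibroblast-like cells the gene stood at 0.437 and 0.0881 in Sham, 10.4 and 6.50 under IMQ, then 7.17 and 16.8 under IMQ+SHP099. These levels came from 3 and 3 UMIs in Sham against 349 and 402 in IMQ. The log2 fold change was 5.82 (SE 0.83, adjusted p = 0.0419) for IMQ and 6.39 (SE 0.83, adjusted p = 0.0457) for IMQ+SHP099, both against Sham. The first call was lost without IMQ replicate 1 (adjusted p = 0.0691), without Sham replicate 2 (0.157) or with the third group left out of the fit (0.108), and the second without Sham replicate 2 (0.178), IMQ+SHP099 replicate 1 (0.207) or IMQ+SHP099 replicate 2 (0.247).

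Blood endothelial-like cells carried Csf3 in every library, Sham included. The level was 205 and 43.1 UPM in Sham, 132 and 139.6 under IMQ, then 96.3 and 178 under IMQ+SHP099, and the groups overlapped. The source of the transcript therefore differed between libraries. These endothelial cells gave 51.9% and 75.3% of all Csf3 UMIs in Sham, 10.9% and 29.3% under IMQ, then 1.67% and 13.3% under IMQ+SHP099. In Sham replicate 1 the level and the share rest on 41 UMIs from 43 endothelial cells. The top cell of that library held 40 Csf3 UMIs, and no other class held more than 16, so that cell was endothelial-like. Keratinocyte-like cells gave 20.3% and 0 in Sham, 54.6% and 11.6% under IMQ, then 93.0% and 20.5% under IMQ+SHP099, and fibroblast-like cells gave 49.6% in IMQ replicate 2 and 60.8% in IMQ+SHP099 replicate 2.

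Il34, the second ligand of Csf1r, lies on chromosome 8 from 110741829 to 110805924 on the minus strand, where the antisense genes Gm15894 and Gm15895 overlap it. It fell in keratinocyte-like cells. Suprabasal keratinocyte-like cells held 96.6 and 71.4 UPM in Sham, 8.48 and 11.5 under IMQ, then 14.97 and 17.003 under IMQ+SHP099. The fall was 2.80 on the log2 scale for IMQ against Sham (log2 fold change -2.80, SE 0.33, adjusted p = 0.000887) and -1.97 (SE 0.33, adjusted p = 0.0046) for IMQ+SHP099 against Sham. The IMQ+SHP099 libraries were higher than either IMQ library, with a log2 fold change of 0.83 (SE 0.33) that did not pass the test (unadjusted p = 0.0311, adjusted p = 1.0). Basal keratinocyte-like cells held 54.1 and 23.8 UPM in Sham, 1.41 and 1.72 under IMQ, then 2.46 and 2.07 under IMQ+SHP099. Their log2 fold changes were -4.65 (SE 0.58, adjusted p = 0.0012) for IMQ and -3.87 (SE 0.55, adjusted p = 0.00261) for IMQ+SHP099, both against Sham. Without IMQ+SHP099 replicate 1 the calls for IMQ+SHP099 against Sham were lost in suprabasal (adjusted p = 0.0548) and in basal cells (0.1001).

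At least 1 Il34 UMI was found in 62.7% and 59.0% of suprabasal cells in Sham, 24.8% and 28.5% under IMQ, then 30.1% and 29.7% under IMQ+SHP099. Thinned to 2000 UMIs, the shares were 17.7% and 12.1% in Sham, 1.84% and 2.96% under IMQ, then 3.52% and 2.07% under IMQ+SHP099. Blood endothelial-like cells, which should lack the gene, held it in 0 to 2.94% of cells, at median depths of 4011 to 7589 UMIs against 13275 to 36659.5 for suprabasal cells. The fall in the suprabasal class for IMQ against Sham passed the test in every alternative that was run, leave-one-out fits included. In upper hair follicle keratinocyte-like cells both IMQ libraries lay below the other 4, with 38.2 and 46.3 UPM in Sham, 18.6 and 17.4 under IMQ, then 45.1 and 22.7 under IMQ+SHP099.

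Outside keratinocyte-like cells no Il34 test passed. Pericyte or smooth muscle-like cells held 78.9 and 68.1 UPM in Sham, 70.4 and 56.1 under IMQ, then 44.4 and 60.7 under IMQ+SHP099, and fibroblast-like cells held 9.47 to 13.4 in all 6 libraries. Schwann-like cells carried 37.6 to 91.1. The share of all Il34 UMIs from keratinocyte-like cells was 96.4% and 62.6% in Sham, 24.98% and 13.5% under IMQ, then 86.7% and 15.9% under IMQ+SHP099. Pericyte or smooth muscle-like cells gave 41.6% and 36.7% in IMQ, and fibroblast-like cells 28.5% and 44.8%.

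**Figure D3:**
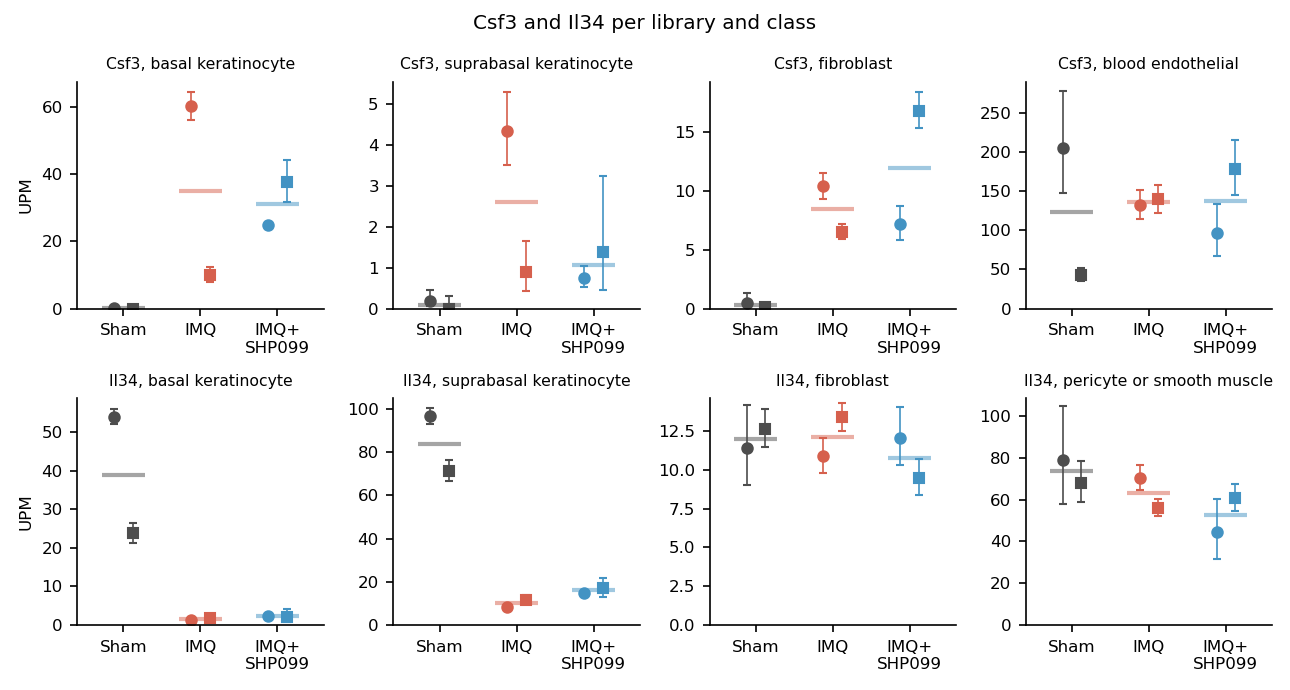
Csf3 (top) and Il34 (bottom) in 4 classes each, in UPM of that class (y axes, which differ between panels), by group. Circles are replicate 1, squares replicate 2, error bars exact 95% Poisson intervals for counting error and lines group means. Csf3 starts near 0 in Sham keratinocyte-like and fibroblast-like cells but not in blood endothelial-like cells, and Il34 drops in keratinocyte-like cells while fibroblast-like cells stay between 9.47 and 13.4. The Sham replicate 1 point for blood endothelial-like cells rests on 41 UMIs, 40 of them in the same cell.

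Csf2, the gene of GM-CSF, lies on chromosome 11 from 54247271 to 54249667 on the minus strand, with the antisense gene Gm12223 over it. T-like cells gave 30.8% to 80.5% of its UMIs. They held 90.4 and 106 UPM in Sham, 254 and 153 under IMQ, then 120.1 and 307 under IMQ+SHP099. Both IMQ libraries lay above both Sham libraries, but the log2 fold change of 1.23 (SE 0.47) did not pass the test (adjusted p = 0.324), and the IMQ+SHP099 libraries lay on both sides of the IMQ libraries. Type 17 T-like cells, the interleukin-17 producers, held 399 and 128 UPM in IMQ from 160 and 35 cells, above the level of all T-like cells in replicate 1 and below it in replicate 2. IMQ+SHP099 replicate 2 held 290.0 from 91 such cells, below its T-like cells, and the other 3 libraries held 2 to 19 such cells, too few for a level. Epidermal gamma-delta T-like cells carried 31.5 to 123 UPM, with groups that overlapped.

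Few cells held most of the Csf2. The 10 cells with the most Csf2 UMIs held 38.9% to 74.1% of a library's Csf2. Over all cells the level was 3.79 and 2.69 UPM in Sham, 10.6 and 2.81 under IMQ, then 1.19 and 9.12 under IMQ+SHP099, so replicates of the treated groups differed more than the groups. In suprabasal keratinocyte-like cells Csf2 rose from 0.189 and 0.0857 in Sham to 7.31 and 1.62 in IMQ, with 0.706 and 8.08 in IMQ+SHP099. On the log2 scale it changed by 5.13 (SE 1.27, adjusted p = 0.0256) for IMQ and 4.86 (SE 1.32, adjusted p = 0.0368) for IMQ+SHP099, both against Sham. The UMIs came from few cells, 10 and 4 under IMQ and 7 and 1 in IMQ+SHP099, and 80.2% of those in IMQ replicate 1 lay in cells that also held an immune marker. In the same sums the T cell marker Cd3g stood at 9.80 and 3.09 UPM in Sham, 5.10 and 1.26 under IMQ, then 1.80 and 0.279 under IMQ+SHP099. The 11 T cell markers summed to 193 and 140.2 in Sham, 151 and 120 under IMQ, then 125 and 80.8 under IMQ+SHP099, with 7 to 11 of them detected. With the cells that held an immune marker left out the log2 fold change was 4.81 (adjusted p = 0.0376). This took out 130 of 162 and 3 of 18 Csf2 UMIs in IMQ. In Sham it took out 4 of 5 and 0 of 1, so the fit rests on very few Sham UMIs. What part T cell RNA had in the suprabasal Csf2 level was not tested. The call for IMQ was lost without IMQ replicate 1 (adjusted p = 0.129), Sham replicate 1 (0.0981) or Sham replicate 2 (0.107), and that for IMQ+SHP099 without Sham replicate 1 (0.1204), Sham replicate 2 (0.153) or IMQ+SHP099 replicate 2 (0.167). In basal keratinocyte-like cells the gene stood at 1.64 and 1.56 in Sham and 0.354 and 0 in IMQ (log2 fold change -2.80, SE 0.94, adjusted p = 0.0702). The Sham UMIs lay in 17 and 8 basal cells, and 31.3% and 100% of these UMIs in cells that also held an immune marker.

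Csf1, the gene of M-CSF, lies on chromosome 3 from 107741048 to 107760469 on the minus strand and was a fibroblast transcript in this tissue. Fibroblast-like cells gave 73.8% to 93.5% of its UMIs in every library. They held 696 and 235 UPM in Sham, 165 and 229.6 under IMQ, then 230.0 and 242 under IMQ+SHP099. Sham replicate 1 stood apart, and the other 5 libraries ran from 165 to 242. The sums of all cells followed the share of fibroblast-like cells within each group, with 62.2 and 104 in Sham, 63.6 and 137 under IMQ, then 25.03 and 141 under IMQ+SHP099. Mast-like and basophil-like cells carried Csf1 as well. Basophil-like cells held 545 and 761 UPM in IMQ, from 23 and 16 cells. No Csf1 test passed in any class.

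Kitl, the ligand gene for Kit, lies on chromosome 10 from 100015630 to 100100416 on the plus strand. It was highest in the cells of vessel walls. Pericyte or smooth muscle-like cells held 207 and 248 UPM in Sham, 124 and 109 under IMQ, then 98.7 and 194 under IMQ+SHP099. IMQ against Sham gave a log2 fold change of -0.80 (SE 0.32, adjusted p = 0.274). Blood endothelial-like cells held 120.0 and 498 in Sham, 102 and 94.4 under IMQ, then 58.9 and 95.7 under IMQ+SHP099 (log2 fold change for IMQ against Sham -1.57, SE 0.50, adjusted p = 0.2001). Without Sham replicate 1 this reached -2.13 (adjusted p = 0.00447), and without Sham replicate 2 it was -0.29. Keratinocyte-like cells held 14.4 and 31.0 in Sham, 8.15 and 12.3 under IMQ, then 7.46 and 12.7 under IMQ+SHP099 (log2 fold change for IMQ against Sham -0.81, SE 0.32, adjusted p = 0.13). In all 3 classes the IMQ libraries were the lower of the 2 groups, without overlap. Fibroblast-like cells held 24.1 and 45.9 in Sham and 50.7 and 52.3 in IMQ, in the other order, and no Kitl test passed.

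**Figure D4:**
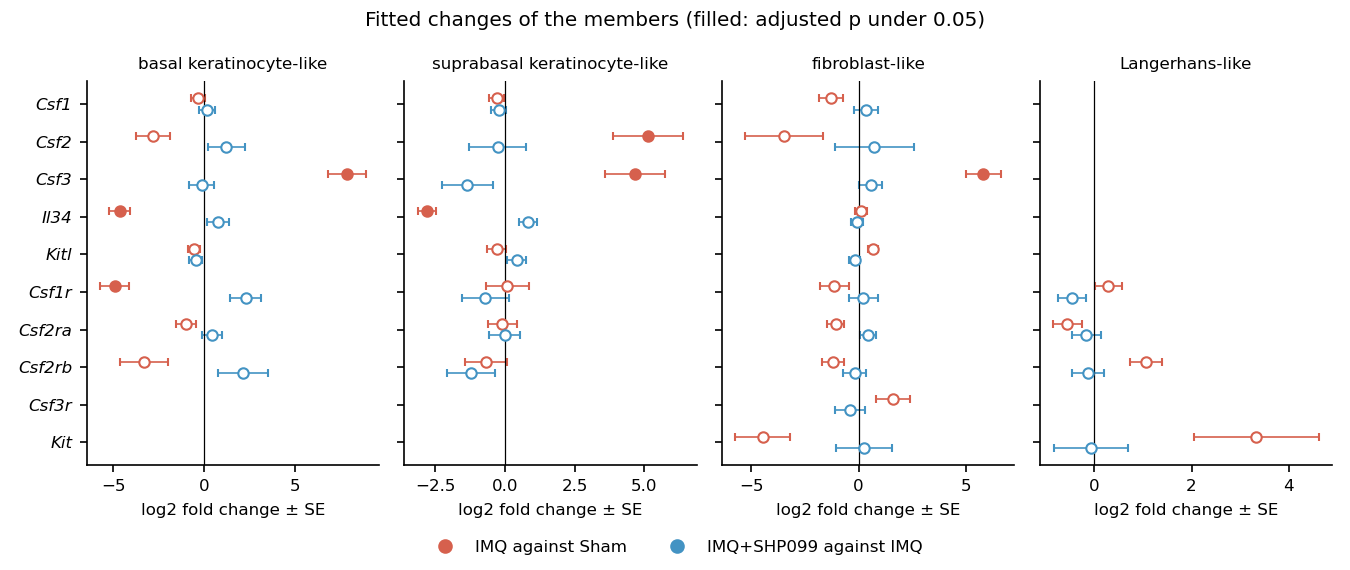
Log2 fold changes (x axis) of the members (rows) in 4 classes, IMQ against Sham in red and IMQ+SHP099 against IMQ in blue, with bars of 1 SE and filled symbols for an adjusted p under 0.05. A row without a symbol had too few UMIs for a test in that class. Filled symbols are red only, for Csf3 and Il34 in both keratinocyte-like classes, Csf2 in the suprabasal, Csf1r in the basal and Csf3 in the fibroblast-like class.

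Csf3r, the receptor gene for G-CSF, marked neutrophil-like cells although it took no part in naming them. They held 571 and 711 UPM in IMQ from 162 and 337 cells, and 1089 in IMQ+SHP099 replicate 2 from 90 cells. A Csf3r UMI was found in 84.0% and 87.8% of neutrophil-like cells in IMQ and 93.3% in IMQ+SHP099 replicate 2, against at most 0.427% of fibroblast-like cells. Thinned to 2000 UMIs, 62.2% and 71.2% of neutrophil-like cells in IMQ kept a UMI. Their median depths were 4341 and 4400 UMIs in IMQ, and those of fibroblast-like cells 8618 and 9207. The 5, 9 and 15 such cells of the Sham libraries and IMQ+SHP099 replicate 1 were too few for a level, and the class was not tested between groups. Neutrophil-like cells gave 57.3% and 73.5% of all Csf3r UMIs in IMQ.

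Mononuclear phagocytes were the other carriers of Csf3r. Monocyte-like cells held 76.0 and 80.4 UPM in IMQ, 32.1 in Sham replicate 2, and 75.8 in IMQ+SHP099 replicate 2. Macrophage-like cells held 27.4 and 35.0 in Sham, 55.1 and 47.1 under IMQ, then 145 and 63.5 under IMQ+SHP099, and both treated groups lay above Sham. IMQ+SHP099 against Sham gave a log2 fold change of 1.70 (SE 0.47), with an adjusted p of 0.154. Over the monocyte, macrophage, dendritic and Langerhans-like cells together the gene went from 3.73 and 14.9 in Sham to 51.7 and 57.1 in IMQ (log2 fold change 2.52, SE 0.74, adjusted p = 0.534). The 9 neutrophil markers moved with it in these sums, from 70.1 and 88.1 UPM in Sham to 1725 and 3274 under IMQ and 1953 and 4096 under IMQ+SHP099. From 3 to 9 of them were detected, Ly6g at 0 in 4 libraries, and their part in the difference was not tested. The makeup of these sums changed too. Monocyte-like cells numbered 13 of 221 and 158 of 874 in Sham against 418 of 567 and 408 of 544 in IMQ. The Sham replicate 1 level came from 5 Csf3r UMIs, and the part of the makeup was not tested.

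Csf1r, the receptor gene shared by M-CSF and interleukin-34, was highest in Langerhans-like cells. They held 521 and 768 UPM in Sham, 682 and 777 under IMQ, then 513 and 509 under IMQ+SHP099. The IMQ+SHP099 libraries were lower than either IMQ library, and no Csf1r test passed in this class. A Csf1r UMI was found in 88.6% to 100% of Langerhans-like cells and in 0 to 1.09% of T-like cells, at median depths of 5889 to 19276 and 1250.5 to 3837 UMIs. Thinned to 2000 UMIs, 62.2% to 82.4% of Langerhans-like cells kept one. Macrophage-like cells ranged from 158 to 587 UPM, both ends lying in Sham. Monocyte-like cells held 287 and 309 in IMQ, 170.1 in Sham replicate 2 and 269 in IMQ+SHP099 replicate 2. The class that gave most Csf1r UMIs differed between libraries, and the part of cell numbers in this was not tested. It was the keratinocyte-like class in Sham replicate 1 (38.4%) and the macrophage-like class in Sham replicate 2 (38.8%). In IMQ+SHP099 replicate 1 it was the Langerhans-like class (62.7%), and in the other libraries the monocyte-like class. Monocyte-like cells gave 0.375% and 10.2% in Sham, 38.3% and 42.1% under IMQ, then 1.497% and 60.8% under IMQ+SHP099.

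Csf1r also passed the test in basal keratinocyte-like cells, where it fell from 7.22 and 4.83 UPM in Sham to 0.0707 and 0.369 in IMQ (log2 fold change -4.92, SE 0.80, adjusted p = 0.00448). In IMQ+SHP099 the level was 0.939 and 0.518 (log2 fold change against Sham -2.62, SE 0.64, adjusted p = 0.0222), a call that was lost without Sham replicate 1 (0.083), IMQ+SHP099 replicate 1 (0.176) or IMQ+SHP099 replicate 2 (0.114). Langerhans cell markers moved with it in the same sums. Cd207, which encodes langerin, stood at 116 and 7.42 UPM in Sham, 0.0707 and 0.491 under IMQ, then 3.74 and 0 under IMQ+SHP099. The 6 Langerhans markers together summed to 837 and 405 in Sham, 145 and 228 under IMQ, then 143 and 145 under IMQ+SHP099, with all 6 detected in Sham and 3 to 6 in the treated libraries. Of the Csf1r UMIs in the basal class, 98.9% and 87.7% in Sham lay in cells that also held an immune marker. With those cells left out too few Csf1r UMIs remained for a test. The limit of 3 times the median UMIs of a library took out a larger share of basal cells in IMQ than in Sham. The call for IMQ was also lost when cells over 3 times the median UMIs were left out (adjusted p = 0.151), and the call over all keratinocyte-like cells (log2 fold change -2.82, SE 0.76, adjusted p = 0.0457) was lost without Sham replicate 1 (0.128), IMQ replicate 1 (0.231) or IMQ replicate 2 (0.159).

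Csf2ra and Csf2rb, the 2 chains of the GM-CSF receptor, were detected together in a share of cells that differed between classes. In IMQ both were found in 42.8% and 37.3% of monocyte-like, 24.7% and 23.1% of neutrophil-like and 21.4% and 14.5% of macrophage-like cells. Dendritic-like cells held both in 11 of 16 and 10 of 22. Of 26 mast-like cells in IMQ replicate 1, 16 held Csf2rb and 2 held both. In Langerhans-like cells Csf2rb stood at 235 and 424 UPM in Sham, 609 and 639 under IMQ, then 638 and 457 under IMQ+SHP099. Both treated groups lay above both Sham libraries, with a log2 fold change of 1.06 (SE 0.33) for IMQ that did not pass the test (adjusted p = 0.151). Csf2ra ran the other way in the same cells, with 253 and 210.2 in Sham, 137 and 167 under IMQ, then 134 and 126 under IMQ+SHP099, and did not pass either. Both chains were detected in 49 of 114 and 15 of 20 Langerhans-like cells of the Sham libraries, 52 of 63 and 46 of 52 of the IMQ libraries, and 75 of 112 and 16 of 25 of the IMQ+SHP099 libraries. The share was highest in the IMQ libraries (82.5% and 88.5%), and Sham replicate 2 lay above both IMQ+SHP099 libraries while Sham replicate 1 was the lowest of the 6. These shares rise with depth, and the median UMIs of the class were 5889 and 11037 in Sham against 19276 and 13765.5 in IMQ. Thinned to 2000 UMIs, Csf2rb alone was found in 27.9% and 35.0% of Langerhans-like cells in Sham, 54.8% and 72.5% under IMQ, then 59.5% and 58.3% under IMQ+SHP099. T-like cells held Csf2rb in at most 0.272% of cells before thinning.

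Csf2ra was found across the myeloid classes, with 212 to 317 UPM in monocyte-like cells of the libraries with at least 20 of them and 131 to 187.9 in neutrophil-like cells likewise. Csf2rb was also carried by basophil-like cells, at 534 UPM in IMQ replicate 1 (23 cells), by mast-like cells at 223 and 759 in Sham replicate 2 and IMQ replicate 1, and by blood endothelial-like cells. The last held 19.999 and 258 in Sham, 139.5 and 101 under IMQ, then 32.1 and 25.6 under IMQ+SHP099. Here the IMQ+SHP099 libraries were lower than either IMQ library (log2 fold change -2.06, SE 0.74, unadjusted p = 0.0198, adjusted p = 1.0), and the Sham libraries lay on both sides. Csf2rb has a close copy in the mouse, Csf2rb2, which serves interleukin-3 alone. Of the 90-base windows of Csf2rb transcripts 5.45% occur in Csf2rb2 as well, so part of the reads could be split between them. In Langerhans-like cells Csf2rb2 stood at 128 and 129.9 in Sham, 227 and 199 under IMQ, then 148 and 179 under IMQ+SHP099.

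Over all cells, Csf2rb, Csf1r and Csf2ra were each lower in both IMQ+SHP099 libraries than in both IMQ libraries. These were 3 of the 10 members, with none in the other direction, against 15.3% of all genes without overlap in either direction. Csf2rb went from 19.5 and 14.6 UPM in IMQ to 7.75 and 9.08, Csf1r from 23.0 and 18.4 to 6.28 and 14.5, and Csf2ra from 15.1 and 15.3 to 3.96 and 12.9. The Sham libraries lay on both sides of IMQ for all 3. Mononuclear phagocyte-like cells, which gave most of these UMIs in IMQ, numbered 567 and 544 in IMQ against 194 and 352 in IMQ+SHP099. Within those cells Csf1r stood at 383 and 368 in IMQ against 409 and 295 in IMQ+SHP099, so the groups overlapped. Their makeup differed as well. Langerhans-like cells were 63 of 567 and 52 of 544 in IMQ against 112 of 194 and 25 of 352 in IMQ+SHP099. Within Langerhans-like cells alone Csf1r was lower in both IMQ+SHP099 libraries than in either IMQ library, as given above. The parts of cell number and makeup were not tested.

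Kit, the receptor gene for stem cell factor, was highest in mast-like cells, with 1964 UPM in Sham replicate 2 and 1689 in IMQ replicate 1, the libraries with at least 20 of them. Melanocyte-like cells, 1 to 18 per library, held 474 to 836 in the 5 libraries where Kit was detected. Epidermal gamma-delta T-like cells, the resident T cells of mouse epidermis, came next. They held 12.9 and 20.3 in Sham, 46.3 and 67.5 under IMQ, then 62.2 and 69.1 under IMQ+SHP099, and both treated groups lay wholly above Sham. The log2 fold change was 1.94 (SE 0.42, unadjusted p = 0.000863, adjusted p = 0.163) for IMQ and 2.11 (SE 0.41, adjusted p = 0.126) for IMQ+SHP099, both against Sham, from 13 to 32 UMIs per library. The defining mast cell marker Cpa3 was detected in these sums in 1 library only, and the 9 mast cell markers summed to 0 to 14.9 UPM, with none detected in IMQ replicate 2 and IMQ+SHP099 replicate 1. What part RNA of mast cells or melanocytes had in the Kit level of these sums was not tested. In fibroblast-like cells Kit stood at 13.1 in Sham replicate 1 and 0.0734 to 1.09 elsewhere, so that 46.2% of the Kit UMIs of that library came from them (log2 fold change for IMQ against Sham -4.46, SE 1.29, adjusted p = 0.189). Without Sham replicate 1 it was -1.42.

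**Figure D5:**
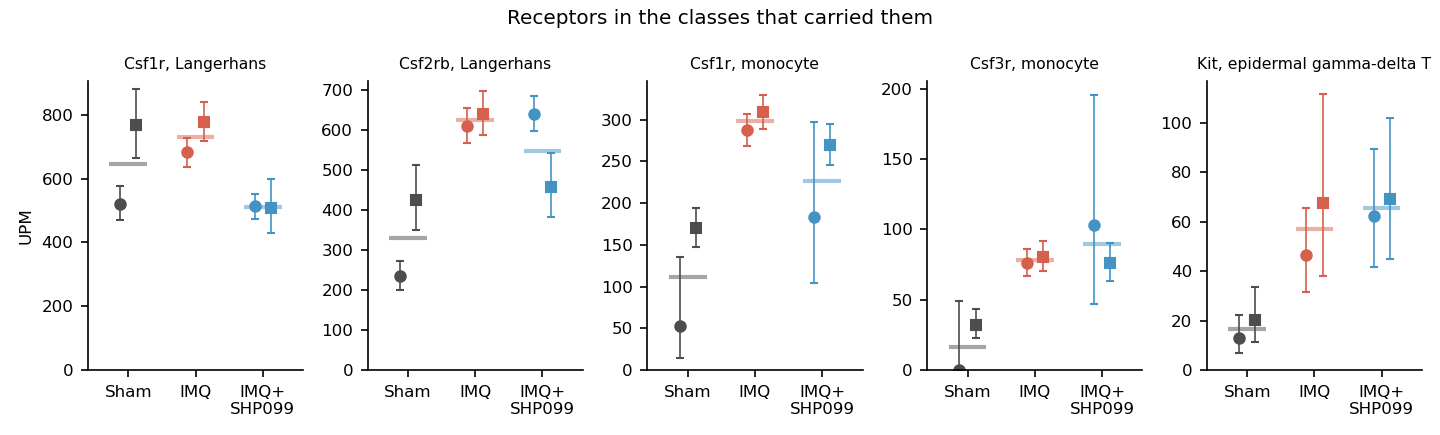
Receptor genes in the classes that carried them, in UPM of the class (y axes, which differ between panels), by group. Circles are replicate 1, squares replicate 2, error bars exact 95% Poisson intervals for counting error and lines group means. Csf2rb in Langerhans-like cells and Kit in epidermal gamma-delta T-like cells lie higher in both IMQ libraries than in both Sham libraries, and neither passed the test, while the Sham replicate 1 points for monocyte-like cells rest on 13 cells.

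The pathway around these genes was described with 4 lists, of 6 related cytokines, 8 related receptors, 25 signalling genes and 11 lineage transcription factors. For IMQ against Sham, 0 of 21 tests of cytokines across the sums were higher and 1 lower, 6 of 40 of receptors higher and 0 lower, 8 of 320 of signalling genes higher and 11 lower, and 1 of 111 of transcription factors higher and 5 lower, against 4.82% of all tests in either direction. Of the 6 receptor calls, 5 lay in the basal, suprabasal and whole keratinocyte-like sums, of which the last contains the others, and 12.7% to 17.1% of genes passed there. For IMQ+SHP099 against IMQ no test of any of the 4 lists passed, with edgeR. In Langerhans-like cells the feedback genes of STAT signalling rose in IMQ, Socs3 by 2.42 (SE 0.43, adjusted p = 0.0214) and Cish by 2.10 (SE 0.43, adjusted p = 0.0382) on the log2 scale, together with the growth factor receptor gene Flt3 by 2.23 (SE 0.46, adjusted p = 0.0382). Socs3 went from 59.0 and 111 UPM in Sham to 545 and 255 in IMQ, and Cish from 46.4 and 22.9 to 189 and 124. The defining marker of the class moved in the same sums, as Cd207 stood at 5719 and 3256 UPM in Sham, 1558 and 1525 under IMQ, then 4020.2 and 1901 under IMQ+SHP099, and its part in the changes of Socs3, Cish, Flt3 and Csf2rb was not tested. In IMQ+SHP099 both remained past the threshold against Sham, at 624 and 573 for Socs3 and 240 and 172 for Cish.

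In keratinocyte-like cells the receptor genes that rose were Ptprz1, a receptor phosphatase known as a further receptor for interleukin-34, and Il3ra, the specific chain of the interleukin-3 receptor. Ptprz1 in suprabasal cells went from 1.21 and 0.943 UPM in Sham to 37.4 and 29.5 under IMQ and 22.4 and 34.0 under IMQ+SHP099, a log2 fold change of 5.27 (SE 0.38, adjusted p = 0.000102) for IMQ against Sham. Il3ra in the same cells went from 1.55 and 1.37 to 5.10 and 5.39 in IMQ (log2 fold change 2.17, SE 0.42, adjusted p = 0.00877). Socs1, a feedback inhibitor of JAK kinases, rose in basal, suprabasal and upper hair follicle classes, by 1.497, 2.59 and 2.06 on the log2 scale. Stat5a, the transcription factor downstream of several of these receptors, fell in basal cells from 28.5 and 40.9 to 6.79 and 9.83 (log2 fold change -1.93, SE 0.28, adjusted p = 0.00258). Spi1, Irf8 and Tyrobp, which are known as genes of myeloid cells, also fell in basal cells, and the Langerhans markers given for Csf1r moved in the same sums. In fibroblast-like cells Flt3l, the ligand gene for Flt3, fell from 57.7 and 73.1 to 14.5 and 15.6 (log2 fold change -2.03, SE 0.22, adjusted p = 0.0215).

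The genes whose levels followed each member most closely were taken over 94 sums of a class in a library, 20 classes in all, on log2(CPM + 1), among 13214 genes. The points share libraries and classes, so Pearson's r is a description. Csf3r went with Fpr2 (r = 0.94), Csf1r with Clec4n (0.96), Csf2ra with Spi1 (0.90), Csf2rb with its copy Csf2rb2 (0.93) and Csf2 with Lat (0.89). Il34 went with Arvcf and Dlg3 (both 0.85), Kitl with Pcdh19 and Sparc (both 0.81), Csf1 with Loxl2 (0.72), Csf3 with B3gnt3 (0.72) and Kit with Ddc (0.70).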

How the data were processed

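The authors deposited raw UMI counts per gene and barcode for 6 libraries made with the 10x Genomics Chromium 3′ method, which Cell Ranger aligned to GRCm38 (mm10) per the labels. The deposited counts carry no normalization. Barcodes under 100000 UMIs, 6500 genes and 10% mitochondrial UMIs were kept, after the study's limits. A cell entered a class by its 4 strongest markers (score of at least 0.3, lead of 0.1, at least 3 markers). This left 3.27% unassigned and 1.66% mixed, the latter kept out of the classes as possible doublets, and 2.25% close to a limit. The sums of all cells kept the unassigned and the mixed cells. The study's own cell labels were not used here. Clusters built without the members (3000 variable genes, 30 components, Leiden resolution 1.5, scanpy 1.11.5) put 95.9% of gated cells in the same class. No doublet caller was run.

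UMIs were summed per library and class. edgeR 4.0.16 (R 4.3.3) tested every gene with TMM scaling, filterByExpr and group as the only term over all 6 libraries, and adjusted p-values over the genes of a sum (Benjamini-Hochberg, threshold 0.05). DESeq2 1.42.0 was an alternative. The fit was tested on simulated data. P-values measure the spread between 2 libraries per group. Poisson and binomial intervals cover counting error only, at 95%, and a count of 0 was read as up to 3 counts. Shares of cells with a UMI were repeated with cells thinned to 2000 UMIs, without 4431 shallower cells. Named genes were the members, listed pathway genes past the threshold (at most 4 per list, sum and comparison) and the 3 genes most like each member. Some of the listed pathway genes are not reported here. Members and lists were chosen with earlier results of these data known. Positions came from GENCODE vM21.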

Additional observations from a re-analysis of the deposited data

Results flagged for a closer look

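The changes of 3 ligand genes differed between cell classes. These comparisons were chosen after the values were seen, so their p-values are not an independent test of the differences. Each was tested in an edgeR quasi-likelihood fit over both classes with the library as a term, and Benjamini-Hochberg adjusted p-values were taken over all genes of that fit. The log2 fold change of Il34 for IMQ against Sham was lower in keratinocyte-like than in pericyte or smooth muscle-like cells by a difference of -2.38 (SE 0.35, adjusted p = 0.00642). Keratinocyte-like cells fell from 68.6 and 41.1 UPM in Sham to 7.05 and 9.58 in IMQ, and pericyte or smooth muscle-like cells held 78.9 and 68.1 against 70.4 and 56.1. For Csf3 the difference between keratinocyte-like and blood endothelial-like cells was 6.39 (SE 0.89, adjusted p = 0.0011). Keratinocyte-like cells rose from 0.189 and 0 to 21.3 and 3.62, and the endothelial cells, which carried Csf3 in Sham already, held 205 and 43.1 against 132 and 139.6. The 205 of Sham replicate 1 rests on 41 UMIs, 40 of them in the same cell. For Csf2 the difference between suprabasal and basal keratinocyte-like cells was 8.10 (SE 1.17, adjusted p = 0.00854). It rests on 10 and 4 suprabasal and 2 and 0 basal cells with a Csf2 UMI in IMQ. In Sham it rests on 3 and 1 suprabasal and 17 and 8 basal cells. Of the Csf2 UMIs in Sham basal cells, 31.3% and 100% lay in cells that also held an immune marker. Over all genes, 618 of 14377, 494 of 13610 and 985 of 13546 passed in these 3 fits.

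Cells that entered no class also held Csf2. In IMQ replicate 2 they carried 121 UPM, above the 94.6 and 2.16 of the Sham libraries. Those 147 UMIs lay in 10 of 470 unassigned cells, 9 of which fell in clusters of T cells, and they made up 45.8% of the Csf2 of that library. The level was 2.18 in IMQ replicate 1 and 26.5 and 25.1 in IMQ+SHP099. The Csf2 levels of T-like cells in IMQ replicate 2 do not include these cells.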

How the results depend on the processing

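The number of member tests past the threshold depended on the low-count filter. For IMQ against Sham it was 10 as reported, 24 without the filter and 6 with cells over 3 times the median UMIs left out, and it ran from 6 (without IMQ replicate 1) to 10 with 1 library left out. For IMQ+SHP099 against IMQ it was 0 as reported, 2 without the filter (Csf2rb in blood endothelial-like and Csf3 in upper hair follicle keratinocyte-like cells) and 0 with any library left out. For IMQ+SHP099 against Sham it was 8 as reported, 21 without the filter, 13 with the replicate block, and 1 (without IMQ+SHP099 replicate 1) to 11 with 1 library left out. The labels do not say that equal numbers mark a shared batch, and with 2 pairs the numbers were not taken to pair libraries. The block gave 14 calls for IMQ against Sham and 0 for IMQ+SHP099 against IMQ. Of the 500 values that 34 fold changes took under the alternatives, 0 changed sign, 35 lost and 15 gained the threshold, and 5 of 18 calls passed throughout. The cause of these shifts was not tested. Scaling moved the median of all genes by -0.49 to 0.09 on the log2 scale. Levels over all cells moved by more than their counting error in 3 of 120 cases, and thinning, which lowers them by construction, moved 33 of 42 shares of cells with a UMI. Leaving out cells with an immune marker was chosen after seeing the data. Neutrophil-like, monocyte-like, mast-like and melanocyte-like cells were too few in some libraries to test, and 2 libraries per group limit every comparison.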

Other observations

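The genes next in likeness to each member were taken over the same 94 sums. Csf1r went with March1 (r = 0.93) and Dpep2 (0.92), Csf3r with Tlr13 (0.92) and Sirpb1b (0.91), Csf2ra with Alox5ap and Themis2 (both 0.89) and Csf2rb with Pik3r6 and Dok3 (both 0.84). Csf2 went with Sytl3 (0.86) and Il12rb1 (0.83), a receptor chain for interleukin-12 and interleukin-23. Il34 went with Ndrg2 (0.83), Kitl with Sparcl1 (0.80), Csf1 with Tcf7l1 and Plpp3 (both 0.68), Csf3 with Bmx (0.68) and Lrg1 (0.66), and Kit with Gcsam (0.69) and A530099J19Rik (0.64).

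Other pathway genes also passed the test for IMQ against Sham. In upper hair follicle keratinocyte-like cells the transcription factor gene Id2 fell (log2 fold change -1.74, SE 0.31, adjusted p = 0.00714), with edgeR's quasi-likelihood test and Benjamini-Hochberg adjustment. Runx3 fell in basal keratinocyte-like cells from 12.2 and 6.38 UPM to 0.990 and 1.47 (log2 fold change -2.93, SE 0.57, adjusted p = 0.00938). It is also known as a gene of leukocytes, and Cd207 fell in the same sums from 116 and 7.42 to 0.0707 and 0.491. In lymphatic endothelial-like cells Socs3, which rose in Langerhans-like cells, fell from 361 and 467 to 198 and 120.1 (log2 fold change -1.37, SE 0.29, adjusted p = 0.0318).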
